A study of Mus musculus with 8 samples.

Results

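CTRP1 is a secreted protein of the C1q and tumour necrosis factor related family, whose members resemble the fat hormone adiponectin, and it is encoded by C1qtnf1. Kidney RNA of mice without functional CTRP1 was compared with that of wild-type littermates for C1qtnf1 itself, for 7 related genes (C1qtnf2 to C1qtnf7, and Fam132a, the table's symbol for the gene of CTRP12) and for the 2 adiponectin receptor genes, Adipor1 and Adipor2. These 10 genes were taken by symbol from the 35275 genes of the deposited table, and each symbol matched 1 row. Of the 10, 9 had reads and 8 reached the mean level of 1 FPKM needed for testing. FPKM is the number of fragments scaled for gene length and library depth, so levels of different genes may be set side by side.

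The KO group held 4 male mice homozygous for a germline deletion in C1qtnf1 (Ctrp1-/-), and the WT group 4 male wild-type littermates (+/+) from crosses of heterozygous parents. All 8 mice were on a C57BL/6J background, were 40 weeks old and had eaten a high-fat diet, with 60% of its calories from fat, from 6 weeks of age. The allele came from 129S5/Sv embryonic stem cells and had been backcrossed for more than 6 generations, and it was carried in the germline, so no single cell type was targeted. RNA came from the whole left kidney, with poly-A selection and 1 library per mouse.

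Most CTRP proteins have a signal peptide, a collagen-like stretch and a C-terminal globular C1q domain, and they circulate as trimers and larger complexes. Several act on liver, muscle and fat through the energy-sensing kinase AMPK. The adiponectin receptors are membrane proteins of the PAQR family that couple to AMPK and to the fatty acid regulator PPAR-alpha and have ceramidase activity. In mice, CTRP1 is best known for raising fatty acid oxidation and for links to blood pressure.

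Library totals lay between 17884140 and 20344859 reads, and 19058 to 19467 genes had a value above 0 in each library. All 10 kidney markers examined, among them Umod, Aqp2 and Slc34a1, had mean levels of 8.58 to 3450 FPKM. KO replicate 2 stood apart from the other 7 libraries. Genes of the mitochondrial genome took 8.74% of its reads, against 3.01% to 4.85% in the others, and its median rank correlation with the other libraries was 0.958, against 0.985 to 0.989. The summed level of 7 endothelial markers was 143 FPKM in it, against 231 to 266 FPKM in the other KO mice and 221 to 253 FPKM in WT. Values without this mouse are given beside the results it moves most.

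The deletion lies in exon 4 of C1qtnf1, on the plus strand of chromosome 11 (mm10, gene from 118428203 to 118449963). It removed 679 bp, of which 162 bp belong to the 3' UTR, so 517 bp are coding. Exon 4 of the annotated transcript spans chr11:118447801-118449963 and holds 551 of the 846 coding bases, stop codon included. The stated size thus leaves 34 coding bases of exon 4 unaccounted for, and where the deletion begins and stops is not stated. Both ends of the coding part of exon 4 are shown because the deletion lies in this part and runs past the stop codon. The first joins chr11:118446626-118446640 of exon 3 to chr11:118447801-118447815 of exon 4, with the bases of exon 4 in capitals, and the second is chr11:118448337-118448366, with the stop codon in capitals (GENCODE M21 transcript sequence, 5′ to 3′).
Exon 3 to exon 4 junction: tcaccatcctgaaagGCGAGAAAGGTGACC
End of the coding part of exon 4: gcctctgagcccTAGtggacactcctgtgg

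C1qtnf1 RNA fell to 11.2% of its wild-type level, and a small remainder was counted in every KO kidney. KO replicates 1 to 4 had 0.883, 0.322, 0.6 and 0.633 FPKM, and WT replicates 1 to 4 had 5.34, 5.27, 5.53 and 5.55 FPKM. Every KO value lay below every WT value, so each library matched its label. The means were 0.61 ± 0.23 FPKM in KO and 5.42 ± 0.141 FPKM in WT (SD, n = 4 each).

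In reads, the KO libraries had 40, 15, 28 and 32 reads of C1qtnf1 and the WT libraries 274, 247, 269 and 286. Summed over each group this made 115 reads in KO and 1076 in WT, and the KO rate was 11.2% of the WT rate with a 95% interval from 9.17% to 13.6% (exact binomial, counting error only). Single KO mice lay between 5.94% and 16.3% of the WT mean. The coefficient of variation was 37.7% among KO mice and 2.59% among WT mice, and counting error alone gives 18.7% and 6.1% at these depths. On the log2(FPKM + 1) scale, which understates changes of low levels, KO minus WT was -2.0 ± 0.11 (SE; adjusted p = 2.3e-05 by limma). It was -3.18 by limma-voom on the reads and -3.01 with a pseudocount of 0.1.

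The fall in C1qtnf1 was larger than the share of its transcript that was deleted. The 679 bp are 26.8% of the 2532 bases of the transcript used for FPKM, and 73.2% of the bases were left, while the mean level was 88.8% lower in KO. The deposited values are 1 per gene and do not show which exons held the KO reads. Gm11747, a gene on the opposite strand, shares 642 exon bases with C1qtnf1 and had 0 or 1 read in each KO library and 0 to 2 reads in each WT library.

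**Figure D1:**
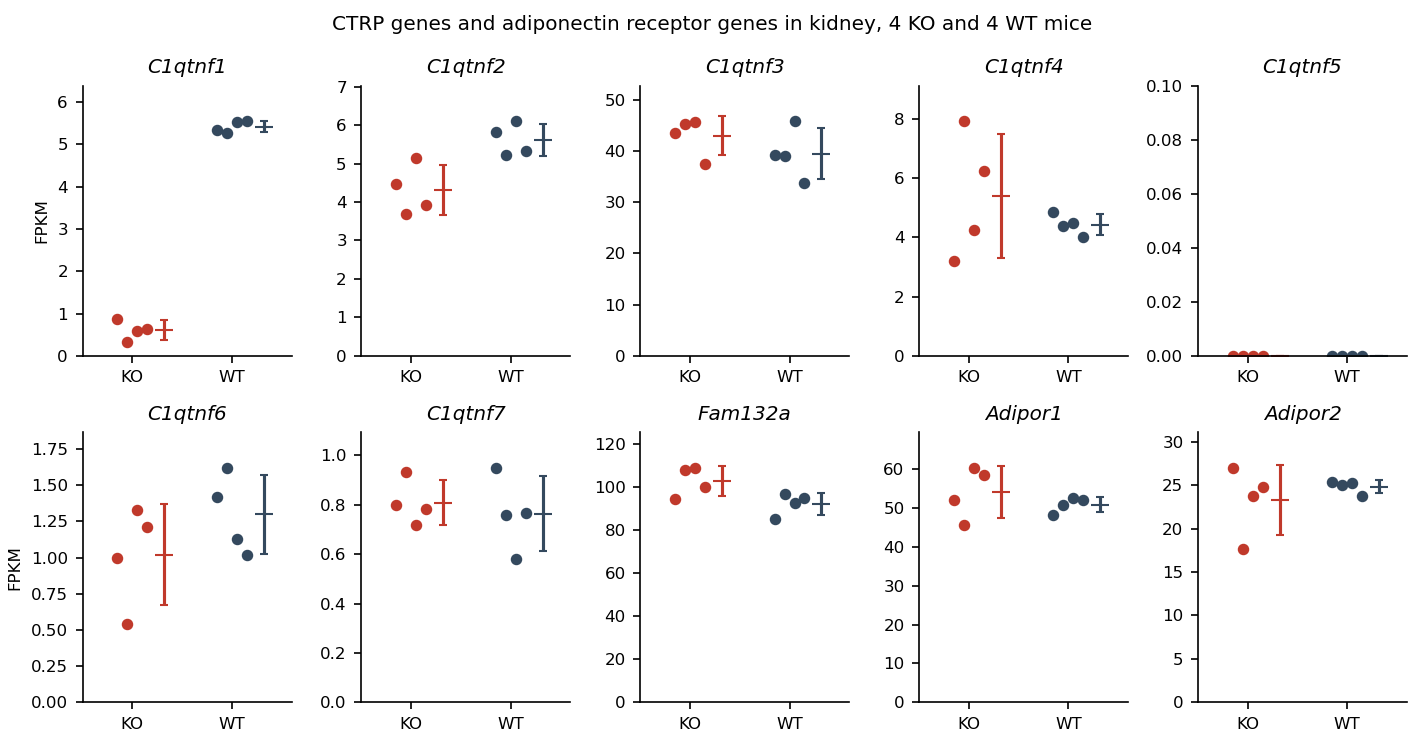
FPKM of the 10 genes in each kidney, with KO mice in red on the left and WT mice in dark blue on the right of each panel; bars are the mean ± SD of 4 mice, and each y axis starts at 0. C1qtnf1 at 0.322 to 0.883 FPKM in KO lies far below 5.27 to 5.55 FPKM in WT, C1qtnf2 separates narrowly, and C1qtnf5 is at 0 throughout.

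Among the 8 members tested, C1qtnf1 was the 1 that changed. Over all 12118 genes tested, 0.0248% were called lower in KO (3 genes, C1qtnf1 included) and 0.0165% higher. The other 7 members did not pass, with 4 fold changes above 0 and 3 below, where 47.2% of all genes tested were above 0. Their median log2 fold change was 0.10, against -0.01 over all genes tested. A missed threshold does not show that levels were equal, so the 95% interval of each difference is given below. The fold intervals are of FPKM + 1, and for genes of low level they are narrower than those of FPKM itself. For 6 of these 7 genes the estimate lay within -0.23 to 0.27, the middle 90% of all genes tested, and C1qtnf2 at -0.31 lay outside it.

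**Figure D2:**
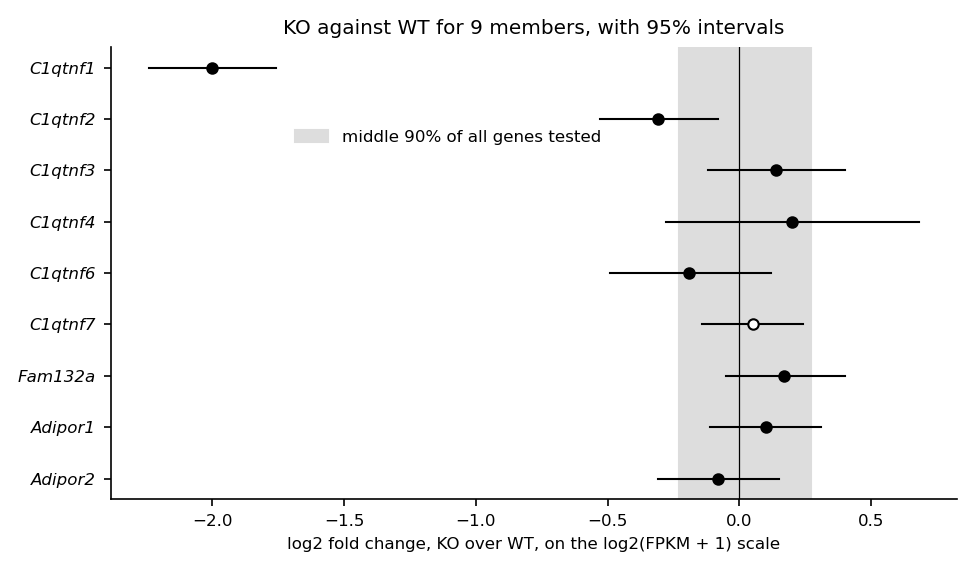
Log2 fold change of KO over WT on the log2(FPKM + 1) scale for the 9 members with reads; points are estimates, lines 95% intervals from limma, and the open point marks C1qtnf7, which was under the level filter. The grey band is the middle 90% of all 12118 genes tested, from -0.23 to 0.27. C1qtnf1 lies far to the left at -2.0, and the interval of C1qtnf2, from -0.53 to -0.08, is the other that leaves out 0.

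Fam132a (mm10, chr4:155962318-155966629, plus strand) encodes CTRP12, also called adipolin, which improves insulin action in mice, and it had the highest level of the family in every mouse. It was at 94.3, 108, 109 and 99.9 FPKM in KO replicates 1 to 4 and at 85.1, 96.7, 92.8 and 94.8 FPKM in WT replicates 1 to 4. The groups overlapped, since KO replicate 1 lay below WT replicates 2 and 4. The means were 103 ± 7.03 FPKM in KO and 92.4 ± 5.08 FPKM in WT (SD, n = 4 each), a log2 fold change of 0.17 ± 0.10 (SE; limma, adjusted p = 0.86). The interval of the fold on that scale ran from 0.965 to 1.32. Without KO replicate 2 the estimate was 0.12 (adjusted p = 0.62).

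C1qtnf3 (chr15:10952332-10980150, plus strand) encodes CTRP3, which lowers glucose output by the liver in mice. It was at 43.5, 45.2, 45.6 and 37.4 FPKM in KO and at 39.2, 39.1, 45.8 and 33.8 FPKM in WT. The lowest and the highest of the 8 values both came from WT mice, so the KO range lay inside the WT range. The log2 difference of 0.14 ± 0.12 (SE) did not pass (adjusted p = 0.86 by limma), and the interval of the fold ran from 0.922 to 1.32. The difference was 0.09 without KO replicate 2 (adjusted p = 0.81). Fam132a and C1qtnf3 had 1609 to 2645 reads in each library, where counting error is 1.99% to 2.35% of the value. The spread among mice was larger, at 6.83% (KO) and 5.49% (WT) for Fam132a and at 8.85% (KO) and 12.4% (WT) for C1qtnf3.

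These genes made up most of the ligand RNA. Fam132a and C1qtnf3 together held 91.5% to 93.0% of the summed FPKM of the 8 ligand genes in KO and 87.1% to 88.7% in WT. The sum includes C1qtnf1, which itself held 0.393% ± 0.166 in KO and 3.63% ± 0.177 in WT (SD, n = 4 each). With C1qtnf1 left out of the sum, their share was 92.7% ± 0.81 in KO and 91.6% ± 0.718 in WT, and the groups overlapped. The summed level of the other 7 ligand genes was 147 to 166 FPKM in KO and 137 to 151 FPKM in WT. The ranges overlapped, although the sum was above the WT range in KO replicates 2 and 3.

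C1qtnf2 (chr11:43474276-43491525, plus strand) encodes CTRP2, a close relative of adiponectin in sequence, and its 2 groups did not overlap. KO replicates 1 to 4 had 4.48, 3.68, 5.15 and 3.93 FPKM, and WT replicates 1 to 4 had 5.82, 5.22, 6.1 and 5.32 FPKM. The margin was narrow, with 5.15 FPKM in the highest KO mouse and 5.22 FPKM in the lowest WT mouse. Of all genes tested, 5.3% did not overlap between the groups, and 3.01% were lower in KO without overlap. The means were 4.31 ± 0.653 FPKM in KO and 5.61 ± 0.419 FPKM in WT (SD, n = 4 each). By limma the log2 difference was -0.31 ± 0.10 (SE) and did not pass the threshold (adjusted p = 0.69), although its unadjusted p was under 0.05, as was that of 5.95% of all genes tested. The fold interval ran from 0.692 to 0.946. Of the summed level of the 7 ligand genes other than C1qtnf1, C1qtnf2 held 2.21% to 3.1% in KO and 3.53% to 4.24% in WT. These shares did not overlap, but they are made from the same C1qtnf2 values and are not a separate observation.

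The value of C1qtnf2 rested on 82 to 115 reads in KO and 117 to 143 in WT, where counting error is 10.1% and 8.66% of the value. Leaving out single mice gave log2 differences from -0.38 to -0.26, with adjusted p by limma from 0.33 to 0.96. C1qtnf2 and C1qtnf1 lie on the same chromosome, far apart. The summed level of 9 fibroblast and pericyte markers overlapped between the groups, at 38.7 to 61.7 FPKM in KO and 46.8 to 61.5 FPKM in WT, and was lowest in KO replicate 2, which also had the lowest C1qtnf2. Its part in the result was not tested. In whole-kidney RNA, fewer cells of a type and less RNA per cell cannot be told apart.

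C1qtnf4 (chr2:90885860-90890525, plus strand) encodes CTRP4, a family member with paired C1q domains that lowers food intake in mice, and it varied widely among KO kidneys. It was at 3.21, 7.92, 4.25 and 6.25 FPKM in KO replicates 1 to 4 and at 4.85, 4.39, 4.48 and 4 FPKM in WT replicates 1 to 4. KO replicates 2 and 4 lay above all WT mice and KO replicate 1 below them. The coefficient of variation was 38.8% in KO and 7.9% in WT, where counting error gives 8.74% in KO and 9.45% in WT. The difference in spread between the groups was not tested. KO exceeded WT by 0.20 ± 0.22 on the log2 scale (SE; adjusted p = 0.87 by limma), and without KO replicate 2 the difference was -0.0039 (adjusted p = 1.0). The fold interval with all mice, from 0.824 to 1.6, was the widest of the tested members on the scale of FPKM + 1. With a pseudocount of 0.1, C1qtnf4 and C1qtnf6 had the same SE of 0.25.

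C1qtnf6 (chr15:78523346-78531416, minus strand) encodes CTRP6, a regulator of fat cell formation and of the alternative complement pathway. It lay between 0.543 and 1.33 FPKM in KO and between 1.02 and 1.62 FPKM in WT, on 24 to 72 reads per library. The groups overlapped, and the lowest value was that of KO replicate 2. Its log2 difference was -0.19 ± 0.14 (SE; adjusted p = 0.86 by limma), and -0.07 without KO replicate 2. The fold interval ran from 0.712 to 1.09 on the scale of FPKM + 1, which understates changes of levels this low. The log2 difference was -0.36 ± 0.26 (SE) by limma-voom on the reads and -0.34 ± 0.25 (SE) with a pseudocount of 0.1. The coefficient of variation was 34.0% in KO and 21.0% in WT, where counting error gives 14.7% in KO and 12.8% in WT.

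C1qtnf7 (chr5:43515538-43618803, plus strand) encodes CTRP7, a secreted protein linked to glucose handling in obese mice, and its mean of 0.787 FPKM was under the level filter. It lay between 0.72 and 0.934 FPKM in KO and between 0.582 and 0.95 FPKM in WT, on 43 to 74 reads per library. In the fit without a filter, where 0.0261% of 22945 genes were called (0.0131% in each direction) and 5.57% had an unadjusted p under 0.05, it differed by 0.05 ± 0.09 on the log2 scale (SE; adjusted p = 0.91 by limma). Its fold interval ran from 0.905 to 1.18 on the scale of FPKM + 1, which understates changes of levels this low. The KO values all lay inside the WT range.

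C1qtnf5 (chr9:44107245-44109187, plus strand) encodes CTRP5, a protein of the retinal pigment epithelium, and it was listed at 0 in all 8 libraries. All 1589 of its merged exon bases are shared with Mfrp, a membrane protein gene on the same strand of chromosome 9, so reads of these genes cannot be told apart by position. Mfrp had 9 to 19 reads per library in KO and 7 to 13 in WT. The value of 0 therefore does not show that C1qtnf5 was silent. On the opposite strand, Gm20444 shares 648 of these bases (40.8%) and was at 0 reads in all libraries. C1qtnf6 shares 4.3% of its exon bases with Gm49490, also on the opposite strand. The sources used here do not say whether reads were counted by strand.

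Adipor1 (chr1:134415378-134433351, plus strand) encodes the adiponectin receptor that couples mainly to AMPK. It was at 51.9, 45.7, 60.3 and 58.4 FPKM in KO replicates 1 to 4 and at 48.2, 50.7, 52.4 and 51.9 FPKM in WT replicates 1 to 4. KO replicates 3 and 4 lay above all WT mice and KO replicate 2 below them, so the groups overlapped. The means were 54.1 ± 6.62 FPKM in KO and 50.8 ± 1.87 FPKM in WT (SD, n = 4 each). This is a log2 difference of 0.10 ± 0.09 (SE; adjusted p = 0.87 by limma), with a fold interval from 0.927 to 1.24. Without KO replicate 2 it was 0.15 (adjusted p = 0.5).

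Adipor2 (chr6:119353150-119417704, minus strand) encodes the receptor that couples mainly to PPAR-alpha. It was at 27, 17.6, 23.7 and 24.8 FPKM in KO and at 25.4, 25, 25.2 and 23.7 FPKM in WT. KO replicate 2 was the lowest by a wide margin, and the other 3 KO mice, at 23.7 to 27 FPKM, lay near the WT range. The means of 23.3 ± 4.03 FPKM in KO and 24.8 ± 0.787 FPKM in WT (SD, n = 4 each) gave a log2 difference of -0.08 ± 0.10 (SE; adjusted p = 0.88 by limma), with a fold interval from 0.804 to 1.11. Without KO replicate 2 it was 0.01 ± 0.06 (adjusted p = 0.96). The ratio of Adipor1 to Adipor2 was 1.92, 2.6, 2.54 and 2.35 in KO and 1.9, 2.03, 2.08 and 2.19 in WT. It was above the WT range in KO replicates 2, 3 and 4 and inside it in KO replicate 1.

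**Figure D3:**
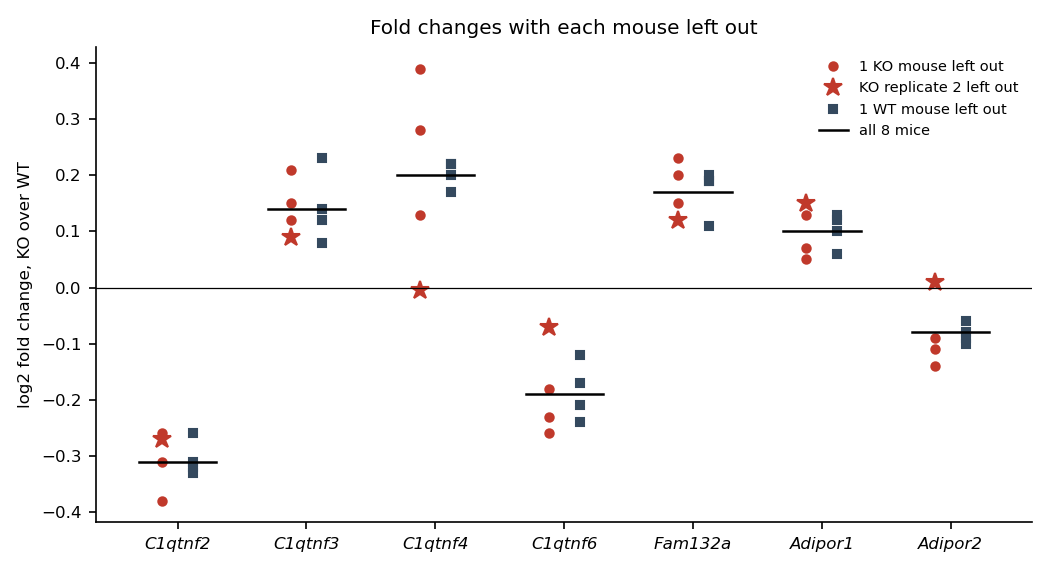
Log2 fold change of KO over WT for the 7 tested members other than C1qtnf1; the black line is the value with all 8 mice, red points leave out 1 KO mouse (the star marks KO replicate 2) and dark blue squares leave out 1 WT mouse. Without KO replicate 2, C1qtnf4 is at -0.0039 in place of 0.20 and Adipor2 at 0.01 in place of -0.08, while C1qtnf2 stays between -0.38 and -0.26.

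KO replicate 2 lay at an end of the KO range for most of the family. It had the lowest KO value in 5 of the 9 members with reads (C1qtnf1, C1qtnf2, C1qtnf6, Adipor1 and Adipor2) and the highest in 2 (C1qtnf4 and C1qtnf7). KO replicate 3 had the highest KO value in 5 and the lowest in 1, so lying at an end was not particular to KO replicate 2. Leaving out KO replicate 2 made no member other than C1qtnf1 pass, although 0.173% of all genes then did (0.0743% higher in KO and 0.099% lower), against 0.0413% with all 8 mice.

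The order of levels within the family was the same in KO and WT for the 4 highest genes. From the top, these were Fam132a, Adipor1, C1qtnf3 and Adipor2 in each of the 8 mice. Fam132a was 1.91-fold above Adipor1 in KO and 1.82-fold above it in WT. Adipor1 was 1.26-fold above C1qtnf3 in KO and 1.29-fold in WT. C1qtnf3 was 1.86-fold above Adipor2 in KO and 1.58-fold in WT. These are geometric means of the ratio within each mouse.

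A gap followed, since Adipor2 was 4.52-fold above the next gene in KO and 4.43-fold in WT. That next gene was C1qtnf4 in KO, at 5.41 ± 2.1 FPKM, and C1qtnf2 in WT, at 5.61 ± 0.419 FPKM (SD, n = 4 each). C1qtnf4 and C1qtnf2 could not be ordered in KO, where 2 of 4 mice had the one higher. In WT, C1qtnf2 and C1qtnf1 did not differ beyond their spread, and each was the higher in 2 of 4 mice. C1qtnf1 was 1.23-fold above C1qtnf4 in all 4 WT mice.

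C1qtnf1 had rank 9 of the 10 genes by mean level in KO and rank 6 in WT. In KO it stood beside C1qtnf7 and C1qtnf6, and the order of these genes did not hold in all 4 mice: C1qtnf6 was above C1qtnf7 in 3 mice and C1qtnf7 above C1qtnf1 in 3 mice. In WT, C1qtnf6 was 1.69-fold above C1qtnf7 in all 4 mice. C1qtnf5 came last with no reads. With reads set against all merged exon bases of a gene in place of the transcript length behind FPKM, C1qtnf3 and Adipor1 were 1.06-fold apart in KO and 1.03-fold in WT and their order did not hold in all mice. On that scale C1qtnf4 and C1qtnf1 were 1.01-fold apart in WT, with C1qtnf4 the higher in 3 of 4 mice, which puts C1qtnf1 at rank 7. The order within both pairs therefore rests on the length used.

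**Figure D4:**
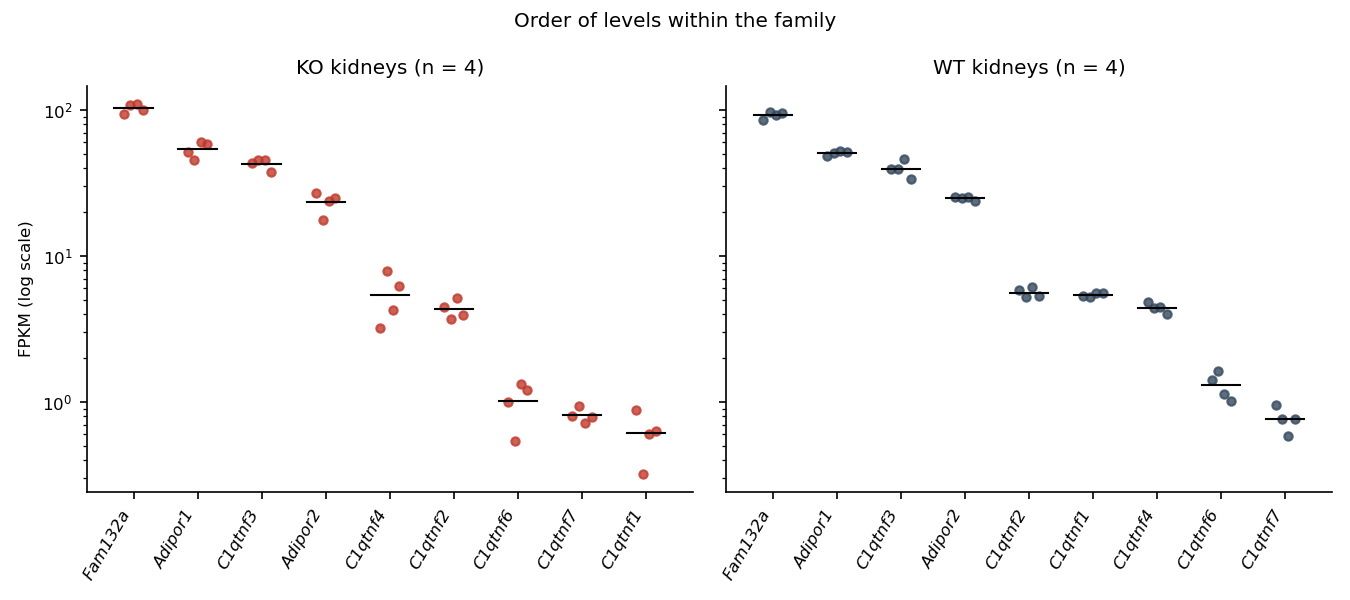
FPKM of the 9 members with reads on a log axis, sorted by mean within KO kidneys (left) and WT kidneys (right); points are mice and lines the means of 4. The first 4 genes keep 1 order in both groups, and C1qtnf1 is the lowest of the genes with reads in KO, at 0.61 FPKM, and stands beside C1qtnf2 and C1qtnf4 in WT, at 5.42 FPKM.

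Genes related to these ligands and receptors, by protein family or by pathway, were read from 4 lists. Of their 39 tested genes, 0 passed by limma over all genes in either direction. At an unadjusted p under 0.05 stood 5 of them, where 5.95% of all genes tested did, and without KO replicate 2 again 0 passed. Of these 5, 4 were among the 19 tested genes of adiponectin receptor signalling and AMPK. Among genes of adiponectin receptor signalling and AMPK, 14 of 19 tested fold changes were below 0 and 5 above, where 47.2% of all genes tested were above 0. The median was -0.10 against -0.01 over all genes. The count and the median include KO replicate 2, which moved several estimates. Without it, Prkaa2 was at -0.08 in place of -0.24 and Acacb at -0.06 in place of -0.21. Others moved down, with Ppargc1a at -0.13 in place of -0.1 and Sirt1 at -0.11 in place of -0.04. The values of 2 of the 19 did not overlap between KO and WT, where 5.3% of all genes tested did not.

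Both of those genes encode regulatory gamma subunits of AMPK, which bind adenine nucleotides, and they lay in opposite directions. Prkag2 was at 16.2, 12.3, 15.8 and 16.1 FPKM in KO and at 19.8, 20.3, 19.4 and 17.7 FPKM in WT (log2 fold change -0.32 ± 0.09, limma adjusted p = 0.49). Prkag1 was at 13.4, 15.9, 13.5 and 13.2 FPKM in KO and at 10.3, 12.8, 10.6 and 12.1 FPKM in WT (log2 fold change 0.29 ± 0.11, limma adjusted p = 0.78). All KO mice lay below all WT mice for the first gene and above them for the second, and neither passed the threshold. Without KO replicate 2 the log2 fold changes were -0.26 (adjusted p = 0.17) and 0.21 (adjusted p = 0.4).

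**Figure D5:**
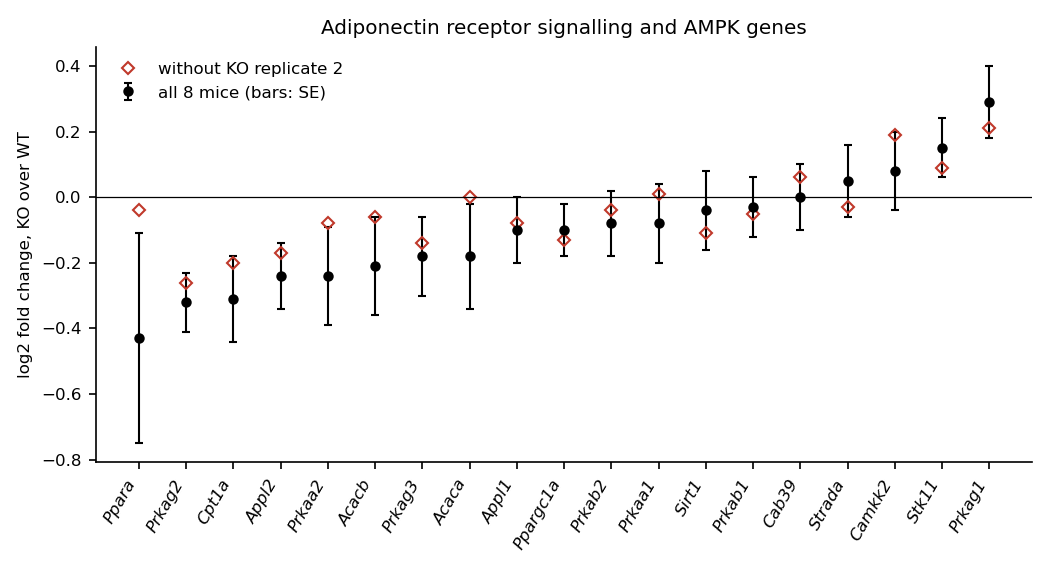
Log2 fold change of KO over WT for the 19 tested genes of adiponectin receptor signalling and AMPK, sorted by value; black points are all 8 mice with SE bars and red diamonds the values without KO replicate 2. Prkag2 at -0.32 and Prkag1 at 0.29 stand toward opposite ends, and Ppara is at -0.43 with all mice and at -0.04 when KO replicate 2 is left out.

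Ppara, the gene of PPAR-alpha, had the most negative estimate of that list, -0.43 ± 0.32, and it rested on KO replicate 2. Chosen after its values were seen, it was at 38.9, 12.3, 42 and 41.8 FPKM in KO and at 38.3, 39, 40.9 and 50.4 FPKM in WT. The remaining 3 KO mice lay within the WT range (log2 fold change -0.04 without KO replicate 2).

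Other genes with a C1q domain did not pass either, with 6 of 9 tested fold changes above 0 and a median of 0.12, where 47.2% of all genes tested were above 0. The 6 include C1qc and, named here beside it, C1qa and C1qb, which are chains of the same complex. Their log2 fold changes were 0.29, 0.29 and 0.3, and each had its highest value in KO replicate 4, so they are not separate observations. C1ql3 and C1ql4, also above 0, had their highest values in KO replicate 2, at 4.08 and 2.24 FPKM. Without that mouse C1ql3 was at -0.06 in place of 0.18. Col8a1, above 0 as well, was then at 0.23 in place of 0.07. Caprin2, an RNA-binding protein with a C1q-like domain, was at 1.65 ± 0.227 FPKM in KO and 2.12 ± 0.165 FPKM in WT (SD, n = 4 each; limma adjusted p = 0.81). C1qc, a chain of complement C1q made by macrophages, was at 25.2 ± 8.74 FPKM in KO and 19.9 ± 1.61 FPKM in WT (limma adjusted p = 0.86). Its log2 fold change was 0.29 with all mice and 0.42 without KO replicate 2 (limma adjusted p = 0.42). The highest value of C1qc, 36.6 FPKM, was that of KO replicate 4. The summed level of 6 macrophage markers was also highest in that mouse, at 59.6 FPKM, against 41.4 to 43.8 FPKM in the other KO mice and 39.4 to 45.7 FPKM in WT. The part of these cells in the C1qc value was not tested.

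The remaining members of the PAQR family, to which both adiponectin receptors belong, had 4 of 5 tested fold changes below 0 and a median of -0.06. Of all genes tested, 47.2% were above 0. Without KO replicate 2, Paqr4 was at 0.04 in place of -0.06 and Paqr9 at -0.0 in place of -0.11. Paqr5 was then at -0.08 in place of -0.02, Paqr7 at -0.1 in place of -0.09 and Mmd at 0.11 in place of 0.1. Paqr9 was at 20.1 ± 3.93 FPKM in KO and 21.9 ± 1.24 FPKM in WT, and Mmd at 7.69 ± 0.747 FPKM in KO and 7.25 ± 0.856 FPKM in WT (SD, n = 4 each; limma adjusted p = 0.87 for both). KO replicate 2 had 14.6 FPKM of Paqr9, and the other KO mice had 20.4 to 23.7 FPKM, against 20.2 to 22.9 FPKM in WT. Genes of ceramide breakdown, the reaction that adiponectin receptors also carry out, had 4 of 6 below 0 and a median of -0.06. Asah2, a neutral ceramidase, was at 12.2 ± 2.33 FPKM in KO and 13.7 ± 0.941 FPKM in WT (limma adjusted p = 0.86). KO replicate 2 had 8.8 FPKM of Asah2, and without it the log2 fold change was -0.03 in place of -0.15. Sphk2, which phosphorylates the sphingosine released, was at 17.7 ± 1.87 FPKM in KO and 16 ± 0.819 FPKM in WT (limma adjusted p = 0.85).

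Adipoq, the gene of adiponectin, is a fat cell gene, and it was low in all kidneys, at 0 to 0.582 FPKM in KO and 0 to 1.04 FPKM in WT. Of 9 adipocyte markers, 7 had mean levels under 1 FPKM. The summed level of all 9 was 103 to 112 FPKM in KO and 76.8 to 110 FPKM in WT, and the groups overlapped. Nearly all of this sum came from the 2 markers that reached the level filter, and the 7 low markers added little to it. Adrenal cortex markers, which could come from the gland beside the kidney, summed to 0.644 to 0.937 FPKM in KO and 0.778 to 1.22 FPKM in WT, with Cyp11b2 at 0 in all mice. Markers of urothelium summed to 14.8 to 34.1 FPKM in KO and 3.98 to 10.2 FPKM in WT, without overlap, and 0 of 6 tested genes passed. These urothelium sums were higher in KO. Among the members, only C1qtnf1 and C1qtnf2 had groups without overlap, and both were lower in KO, the opposite direction. Whether the tissue sampled had a part in any of these values was not tested.

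The genes whose profile over the 8 libraries was most like that of C1qtnf1 were sought among 12117 other tested genes by the root mean square difference of centred log2 values. Among the 3 nearest were Cyp4a14, a fatty acid omega-hydroxylase gene on chromosome 4, which differed by 0.42, and Gc, the gene of the vitamin D binding protein on chromosome 5, which differed by 0.57. The median gene differed by 1.01, which is also the size of the centred profile of C1qtnf1 itself. A gene with no change lies that far away, so the search favours genes with a fall in KO of like size. The lower KO values of Cyp4a14 and Gc follow from this choice. Cyp4a14 was at 5.48 to 11.8 FPKM in KO and 25.7 to 47.1 FPKM in WT and passed the threshold (log2 fold change -2.04 ± 0.23, limma adjusted p = 0.0091). Gc was at 10.9 to 17.7 FPKM in KO and 22.4 to 32.8 FPKM in WT and did not (log2 fold change -0.94 ± 0.15, limma adjusted p = 0.11).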

How the data were processed

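RNA of 8 kidneys was sequenced, and the authors' table gives 1 value per gene for each kidney. Its header names no unit. The deposited values were treated as FPKM, because column totals differ and low values are whole multiples of a step that falls with gene length. The authors used STAR 2.5, HTSeq 0.6.1, CASAVA, DESeq2 and build mm10, per the submitters' processing notes, which state no roles, annotation release or strand setting. Library totals and gene lengths were worked out from these steps, and all 22945 genes above 0 gave whole reads within 0.0022. Of 500 control genes with a mean of at least 1 FPKM, 0 did with totals shifted by up to 0.1%. For genes with reads in few libraries a fitting length is easily found, and the control did not cover genes of low level. The fitted length equalled the longest GENCODE M21 transcript for 15639 genes, and 34490 of 35275 genes (97.8%) matched M21 by identifier. Mitochondrial shares and counting errors use these reads, without molecular identifiers.

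Genes with a mean of at least 1 FPKM were tested with limma 3.58.1 (R 4.3.3, statmod 1.5.0; trend and robust options) on log2(FPKM divided by a trimmed mean of M values factor, plus 1), with Benjamini-Hochberg adjustment at 0.05 over all genes; the script was tested on simulated data. C1qtnf7 was read from the fit without the filter. Groups followed the genotype labels, and replicate numbers only name mice. Named genes were the members, listed genes with the 2 lowest p per list, overlapping genes and the nearest profiles to C1qtnf1, of which 1 is not reported here. Members and lists were chosen with earlier results of these data known.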

Additional observations from a re-analysis of the deposited data

How the results depend on the processing

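The calls of the members did not depend on the setting: C1qtnf1 alone passed under all 16 alternatives, which covered scaling, level filters, the pseudocount, array weights, moderation, limma-voom and each mouse left out. The count of 5 genes called overall became 59 with array weights, which gave KO replicate 2 a weight of 0.1, and 3 to 21 with a mouse left out. It was 21 without KO replicate 2, 21 without KO replicate 3, 9 without KO replicate 4, 3 without WT replicate 1 and 3 without WT replicate 3. With a mouse left out, C1qtnf4 lay between -0.0039 and 0.39 and Adipor2 between -0.14 and 0.01 (log2 fold change); each changed sign without KO replicate 2 alone. The C1qtnf1 level in KO, 11.3% of WT after scaling, was 9.7% to 12.9% with a mouse left out. Of 16 neighbouring pairs in the order of levels, 12 held beyond their spread, 11 to 13 with a mouse left out and 10 by merged exon length. With 4 mice per group, the width of the fold intervals given limits the precision. No paired analysis was possible because the labels give no shared replicate numbers.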

Other observations

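C1qtnf9 and Fam132b, relatives outside the 10 genes, were chosen after their values were seen. C1qtnf9, the gene of CTRP9, was at 0.206, 0.2, 0.542 and 0.526 FPKM in KO and at 0.181, 0.34, 0.301 and 0.31 FPKM in WT. KO replicates 3 and 4 lay above all WT mice, and the other KO mice lay inside the WT range. Fam132b, the gene of the iron hormone erythroferrone, averaged 0.0667 ± 0.0337 FPKM in KO and 0.0322 ± 0.0233 FPKM in WT (SD, n = 4 each). It was at 0.0397, 0.116, 0.0578 and 0.0534 FPKM in KO and at 0, 0.0384, 0.0555 and 0.0349 FPKM in WT. The groups overlapped, and the highest value was that of KO replicate 2. C1qtnf9 and Fam132b were both under the level filter and were not tested.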
